A study of Mus musculus with 6 samples.

Results

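The Ebf1 locus of the mouse held 60 regions of open chromatin among the 70174 found in the series. The locus was taken as the gene itself (chr11:44618100-45008096, mm10) with 100 kb on each side, and every deposited peak that touched it was counted and merged across libraries into union regions. ATAC-seq, in which the Tn5 transposase inserts sequencing adapters into accessible DNA, had been run on immature B cells sorted from spleen as B220+CD93+. All groups shared the Tcrd-GDL background, in which the locus of the T cell receptor δ chain drives the diphtheria toxin receptor in γδ T cells. In the DTx group (n = 3 libraries) the mice had received 2 intraperitoneal injections of diphtheria toxin at 15 ng per gram, 48 h apart, and cells were taken on day 8 after the first. The other group (n = 3 libraries) was untreated, with no vehicle injection or age given in the labels, so loss of γδ T cells and other effects of the toxin or of the injections cannot be told apart. Whether each library is a separate mouse is not stated in the labels, so the p-values refer to the spread among these 6 samples, part of which may be technical.

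Ebf1 encodes early B cell factor 1, a transcription factor that commits lymphoid progenitors to the B lineage together with E2A (Tcf3) and PAX5. It binds DNA as a dimer at a palindromic site, opens chromatin at B cell genes such as Cd79a and Blk, and remains expressed in immature and mature B cells. The gene is transcribed from a distal and a proximal promoter.

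Depth is unknown, since the lists carry no read totals. List length is only a rough guide to what each library yielded, since it also depends on the cutoff of the list. The DTx lists held 44661, 56266 and 60811 peaks and the untreated lists 36760, 42504 and 56503. DTx replicate 1 and untreated replicate 3 were deposited in a narrow layout with peak summits, and the other 4 in a broad layout without them. Of 6 B lineage markers, 5 had a peak within 1 kb of a gene end in all 6 libraries, among them Cd79a, Pax5 and Cd93. Over all 21887 protein-coding genes that share was 49.2%. None of 4 T cell, 4 myeloid and 4 natural killer markers had one in all 6 libraries, and Cd3e, Cd8a, Lyz2, S100a8, Ncr1 and Klrb1c had none in any. The number of natural killer markers with a gene-end peak was 0 in each DTx and 1 in each untreated library. The untreated calls were weak and in different genes, Nkg7 in 1 library (percentile 6.55 of its list) and Il2rb in 2 (18.7 and 26.9). No natural killer marker was called in all 3 untreated and no DTx libraries, as 0.00457% of all protein-coding genes were. For T cell markers the number was 0, 1 and 2 in DTx against 0, 1 and 1 in untreated libraries. For myeloid markers it was 1, 1 and 2 against 1, 2 and 2. Of 4 erythroid markers 3 had one in all 6, Klf1 and Hbb-bt among them, while Gata1 had none. Their part in the results at Ebf1 was not tested, and fewer cells with an open site and less opening per cell cannot be told apart in such bulk libraries.

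RefSeq's promoter table (GRCm38.p6, the mm10 assembly) lists 2 starts for Ebf1, both on the plus strand and 2128 bp apart. The 250 bases before each are shown because the peaks at this end of the gene lie mostly beside them, with the letters that matched a RUNX motif in capitals. They span chr11:44617850-44618099 and chr11:44619978-44620227.
Ebf1 start 1: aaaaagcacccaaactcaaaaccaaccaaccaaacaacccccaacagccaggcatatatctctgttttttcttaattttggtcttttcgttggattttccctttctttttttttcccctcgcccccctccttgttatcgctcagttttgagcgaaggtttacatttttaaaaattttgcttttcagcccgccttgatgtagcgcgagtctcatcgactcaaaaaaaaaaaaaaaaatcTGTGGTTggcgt
Ebf1 start 2: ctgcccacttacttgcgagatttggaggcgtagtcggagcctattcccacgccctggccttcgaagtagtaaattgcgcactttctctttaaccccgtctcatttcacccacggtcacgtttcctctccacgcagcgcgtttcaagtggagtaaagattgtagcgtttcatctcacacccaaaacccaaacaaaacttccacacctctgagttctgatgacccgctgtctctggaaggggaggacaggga

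The first of these windows was 40.0% G and C and the second 52.0%, against a median of 52.4% over 32851 promoter windows of the same length. Both strands were searched for 10 short motifs of factors or elements known at B cell promoters. The RUNX motif TGTGGTT occurred once, at positions -12 to -6 relative to the first start, and 4.4% of all windows held it. The other 9 had no match in either window. They were the EBF palindrome, TCCC and GGGA spaced by 2 bases (in 0.779% of all windows), the E-box CAGGTG (17.2%), the ETS motif AGGAAGT (7.69%), the STAT motif TTCNNNGAA (7.02%), the octamer ATGCAAAT (1.6%), the AP-1 motif TGANTCA (6.75%), TATAAA (12.4%), the GC box GGGCGG (32.7%) and CCAAT (33.8%). A match is a run of letters, not a site in use, and none overlapped another motif because only 1 was found.

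The open site at the start of Ebf1 was called in all 6 libraries and was centred upstream of the first annotated start. Its union region (chr11:44616718-44618583) was 1866 bp wide. The 2 lists with summits placed the summit 882 bp (DTx replicate 1) and 883 bp (untreated replicate 3) before the start. The strongest peak of the region stood at percentiles 87.6, 91.0 and 87.1 of −log10 q in the DTx lists and 78.1, 89.2 and 92.6 in the untreated lists, where the percentile ranks a peak among all peaks of its own list and 100 is the strongest. The 2 groups overlapped. Only the peaks of DTx replicate 3 and untreated replicate 2 ran on across the start, and these alone covered the 250 bases of the first window. In the other 4 libraries the main peak ended before the start, between 387 bp (DTx replicate 1) and 561 bp (untreated replicate 1) away, and DTx replicate 2 and untreated replicate 3 had a separate weak peak after it, at percentiles 10.7 and 25.5. The second window was partly covered in DTx replicate 3 (156 bases) and untreated replicate 3 (133 bases), by peaks at percentiles 48.5 and 10.7, and not in the other 4 libraries.

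The 60 regions held 274 peaks and covered 37194 bp, or 6.3% of the 590 kb window. Of them, 39 lay in Ebf1, whose exons and introns could not be told apart with the gene table used, 9 in the neighbouring gene Rnf145, and 10 in no annotated gene. The other 2 lay in the long noncoding RNA genes 4930597A21Rik, at whose lower end 3 DTx and 2 untreated libraries had a peak, and Gm51859, whose lower end had one in all 6. Of the 3 further noncoding genes with an end in the window, Gm51891 had a gene-end peak in 2 libraries of each group, and Gm39815 and Gm12159 had none. Along the 390 kb of Ebf1, open sites were densest at the 5′ side. The 100 kb before the start held 17 regions and the first 100 kb of the gene 14. The 17 included the 9 in Rnf145 and the start region of Ebf1, placed here by its midpoint. The next 2 stretches of 100 kb held 9 and 8, the last 90 kb of the gene 6 and the 100 kb after it 6, the region across the 3′ end included. Regions called in all 6 libraries numbered 8 (4 of them in Rnf145), 9, 3, 3, 2 and 4 in the same order. The longest stretch with no peak in any library ran 52.8 kb beyond the 3′ end, and inside the gene 93.3 kb separated neighbouring regions called in all 6 libraries, from 157.6 to 251.4 kb after the start. The region nearest to the lower border inside the window was called in all 6 libraries 97.5 kb from the gene, and so was the nearest outside it, at 113.4 kb. At the upper border these distances were 81.2 and 108.4 kb, again with calls in all 6 libraries, so the 100 kb limit does not mark an end of the open sites.

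**Figure D1:**
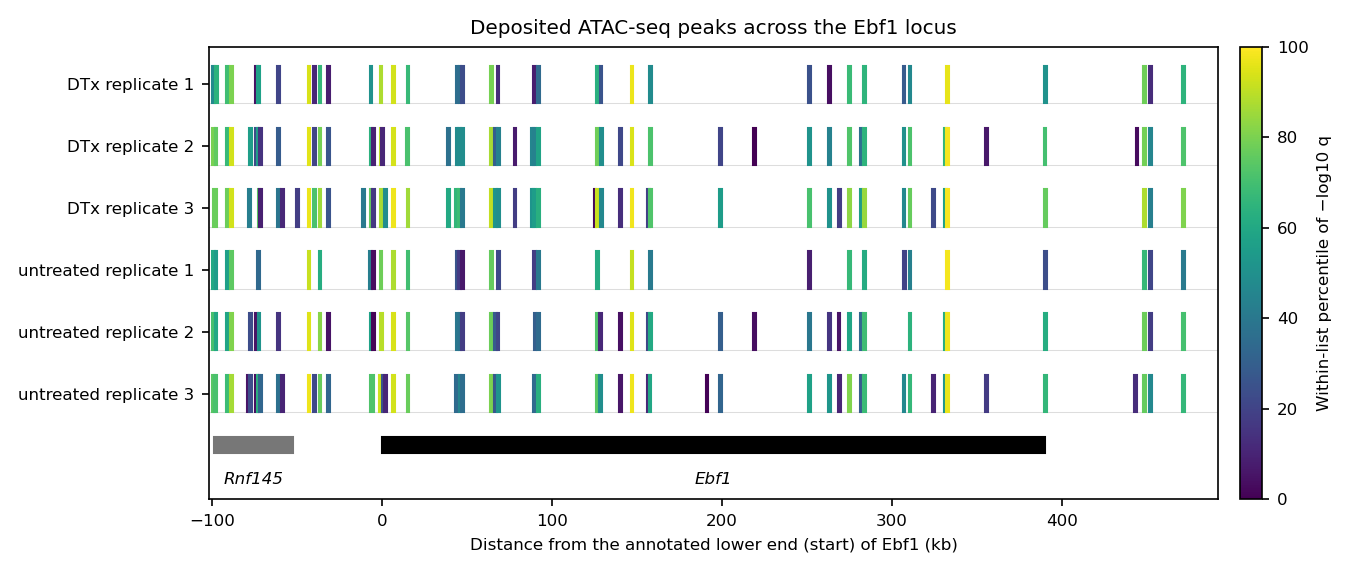
Deposited peaks across the locus, with distance from the annotated Ebf1 start in kb on the horizontal axis and 1 library per row, DTx above untreated. Each bar is a peak (widened where needed to be visible), coloured by the within-list percentile of −log10 q, and the gene bodies of Rnf145 and Ebf1 are drawn to scale below. The same strong sites recur in all 6 rows, while the weaker bars are fewest in untreated replicate 1.

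The strongest site of the locus in 2 of 3 DTx and 2 of 3 untreated libraries lay far inside the gene, 332.6 kb after the start (chr11:44950367-44950978). Its percentiles were 96.4, 98.5 and 98.9 in DTx and 98.2, 97.9 and 96.9 in untreated libraries. In the 2 lists of the narrow layout another site ranked first. In DTx replicate 1 it was one 146.9 kb into the gene (chr11:44764384-44765581), at 97.1, 94.2 and 97.9 in DTx and 91.3, 95.0 and 97.4 in untreated libraries. In untreated replicate 3 it was one 43.1 kb before the start, outside any annotated gene (chr11:44574612-44575322), at 94.1, 95.6 and 96.9 in DTx and 91.6, 95.1 and 97.6 in untreated libraries. The groups overlapped at all 3 sites, so each was among the strong peaks of every list whatever the group.

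Another strong site lay near the starts, 6.69 kb into the gene (chr11:44624458-44625129), with percentiles 93.1, 93.4 and 97.4 in DTx and 87.6, 94.1 and 93.2 in untreated libraries. By the lowest percentile over the 6 lists, the start region came next, and then a site 64.1 kb into the gene (chr11:44681953-44682456) at 79.6, 86.7 and 90.7 in DTx and 76.5, 77.4 and 80.4 in untreated libraries. The last 2 of the 8 strongest were in the body of Rnf145, 88.6 kb before the Ebf1 start (chr11:44529142-44529899), and 14.8 kb into Ebf1 (chr11:44632173-44633583). The site in Rnf145 stood at 80.4, 93.1 and 93.3 in DTx and 75.4, 81.1 and 86.5 in untreated libraries. The site 14.8 kb into Ebf1 stood at 67.4, 71.4 and 85.7 in DTx and 69.8, 73.6 and 77.1 in untreated libraries. The groups overlapped at each of these 5 sites. Just behind them, by a lowest percentile of 67.2 against 67.4, was a site 448.7 kb after the start and beyond the gene (chr11:45066477-45067092), at 77.8, 78.7 and 87.8 in DTx and 67.2, 77.7 and 76.2 in untreated libraries. There the groups did not overlap on this scale, but they did when ranked among the regions called in all libraries, at 68.2, 61.7 and 76.0 in DTx and 61.2, 69.4 and 56.8 in untreated libraries.

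The widest union region, 2503 bp at 5.98 kb before the start (chr11:44610869-44613371), was a single long peak in untreated replicate 3 and a pair of peaks in DTx replicates 2 and 3 and untreated replicates 1 and 2. DTx replicate 1 had the peak farther from the start only, and both lists with summits placed that summit 7005 bp before the start. The strongest peak stood at 51.1, 64.0 and 76.3 in DTx and 42.4, 57.6 and 72.3 in untreated libraries. The other wide region, of 2252 bp (chr11:44518348-44520599), spanned the start of Rnf145, which encodes a RING finger ubiquitin ligase. In 5 libraries it held 1 peak at the lower end of the gene and another over the last of 3 tabulated Rnf145 starts, 1496 bp further on, while DTx replicate 3 had a single long peak. Its percentiles were 64.4, 79.5 and 77.3 in DTx and 59.8, 70.3 and 74.0 in untreated libraries for the strongest peak. At the 3′ end of Ebf1 a region of 708 bp (chr11:45007839-45008546) stood at 51.1, 70.0 and 76.5 in DTx and 23.8, 61.8 and 66.1 in untreated libraries. The groups overlapped in all 3 cases, and the low value of the 3′ end was that of untreated replicate 1, the shortest list.

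Positions of the sites agreed closely between the 2 lists with summits. They were compared over the 34 regions of the locus with a single peak in each of DTx replicate 1 and untreated replicate 3. The start regions of Ebf1 and Rnf145, with more than 1 peak in at least 1 of these lists, were left out. The summits lay a median of 12 bp apart, between 0 and 193 bp, and 97.1% lay within 100 bp. Over the 36950 regions compared in the whole series the median was 17 bp and the share 91.8%. The summits of the sites 43.1 kb before and 6.69 kb after the start fell on the same base in both lists, and those 146.9 kb into the gene 1 bp apart.

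Regions called in all 6 libraries numbered 29 (48.3%), against 44.1% of all regions of the series. Those called in 1 library numbered 8 (13.3%), against 18.2%. The others were called in 2 (7 regions), 3 (3), 4 (8) or 5 (5) libraries. Peaks of the 31 regions missing from at least 1 library were weaker, with a median percentile of 22.5 (89 peaks) against 67.2 (185 peaks) for the regions in all 6. Within each group, longer lists called more of the 31: 7, 20 and 24 in the DTx libraries and 1, 14 and 22 in the untreated ones. The commonest pattern, in 6 regions, was a call in replicates 2 and 3 of both groups. In another 4 only untreated replicate 1 lacked a call.

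**Figure D2:**
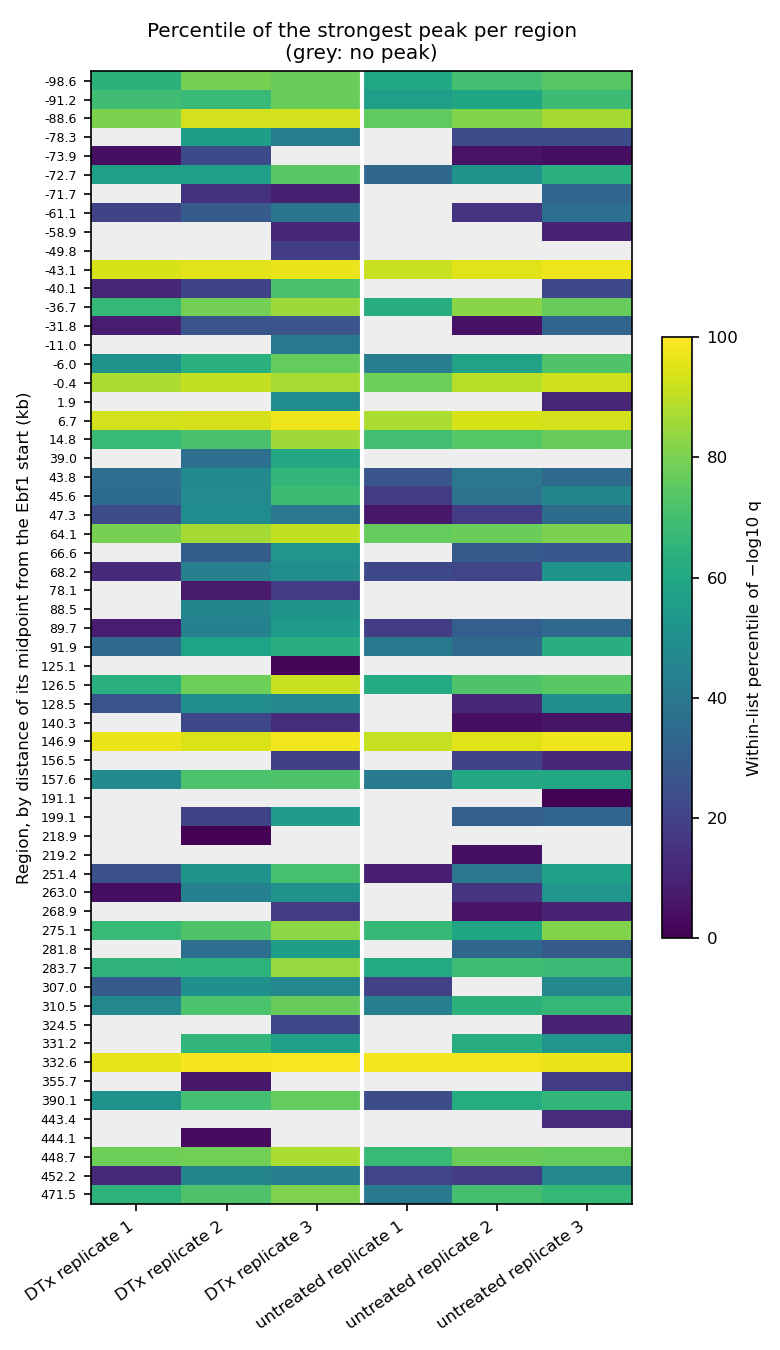
Within-list percentile of −log10 q of the strongest peak in each of the 60 regions (rows, by distance from the Ebf1 start in kb) and each library (columns, DTx left of untreated), with grey where a library has no peak. Grey cells are most numerous in untreated replicate 1 and DTx replicate 1 and no row is coloured in 3 libraries of 1 group only.

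No region of the locus was called in every library of 1 group and in none of the other. The count was 0 for DTx, where 0.705% of all regions had that pattern, and 0 for untreated, where 0.0242% had it. With every list reduced to its 36760 strongest peaks, the length of the shortest, 44 regions remained and both counts were again 0, against 0.375% for DTx and 0.574% for untreated. By a looser count, 8 regions (13.3%) had calls in DTx libraries only, against 17.9% of all regions, and 3 (5.0%) in untreated libraries only, against 5.42%. The shares at the locus were thus near or below those of the genome in both directions. More DTx than untreated libraries called 15 regions, more untreated than DTx libraries called 5, and 40 were called in equal numbers. The share of all regions with such a split was not counted. The DTx lists were 1.19 times as long on average, so the split is not read as a trait of the locus.

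The regions called in 2 DTx libraries and no untreated one were 3, all in the first 100 kb of the gene and named here after their values were seen. That at 39.0 kb (chr11:44656972-44657197) stood at percentiles 36.7 and 60.4 in DTx replicates 2 and 3, that at 88.5 kb (chr11:44706490-44706645) at 45.8 and 51.8, and that at 78.1 kb (chr11:44696066-44696285) at 7.32 and 17.7. DTx replicate 1, the shortest DTx list, called none of the 3. The share of all regions with this pattern was not counted. Neither the number of these regions nor their place is thus read as a trait of the locus. A region 40.1 kb before the start (chr11:44577845-44578196) was called in all DTx libraries, at 10.7, 20.1 and 71.1, and in untreated replicate 3 alone, at 21.9. DTx replicate 2 and untreated replicate 3 were close, and DTx replicate 3 stood apart.

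The number of peaks in the locus did not separate the groups. DTx libraries had 37, 52 and 54 peaks and untreated libraries 32, 45 and 54. The means were 47.7 ± 9.29 in DTx and 43.7 ± 11.1 in untreated libraries (SD, n = 3 each), a difference of 4.0 (exact two-sided permutation p = 0.7). Scaled to 10000 peaks of the list, the order of the means turned, with 8.28, 9.24 and 8.88 in DTx and 8.71, 10.6 and 9.56 in untreated libraries. These averaged 8.80 ± 0.483 in DTx and 9.62 ± 0.942 in untreated libraries, a difference of -0.814 (SD, n = 3 each, exact permutation p = 0.3). In equal-length lists the counts were 30, 38 and 42 in DTx and 32, 38 and 33 in untreated libraries, and the 2 groups again overlapped.

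Bases under peaks came to 15719, 23116 and 28974 in DTx and 13303, 20600 and 29740 in untreated libraries. The means, 22603 ± 6642 in DTx and 21214 ± 8236 in untreated libraries, differed by 1389 bp (SD, n = 3 each, exact permutation p = 0.8). All 4 measures per library, the mean rank given below included, had a Benjamini-Hochberg adjusted p of 0.8 over the 4 exact permutation tests, none of which can go below 0.1 with 3 libraries against 3. Within the list layouts the difference in peaks was 14.5 for the 4 broad lists and -17.0 for the 2 narrow ones, and that in bases 9094 and -14021 bp. Per 10000 peaks it was -0.585 for the broad and -1.27 for the narrow lists, the same sign in both. The direction of the peak count thus depended on which libraries were compared, and without untreated replicate 1 it was -1.83.

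**Figure D3:**
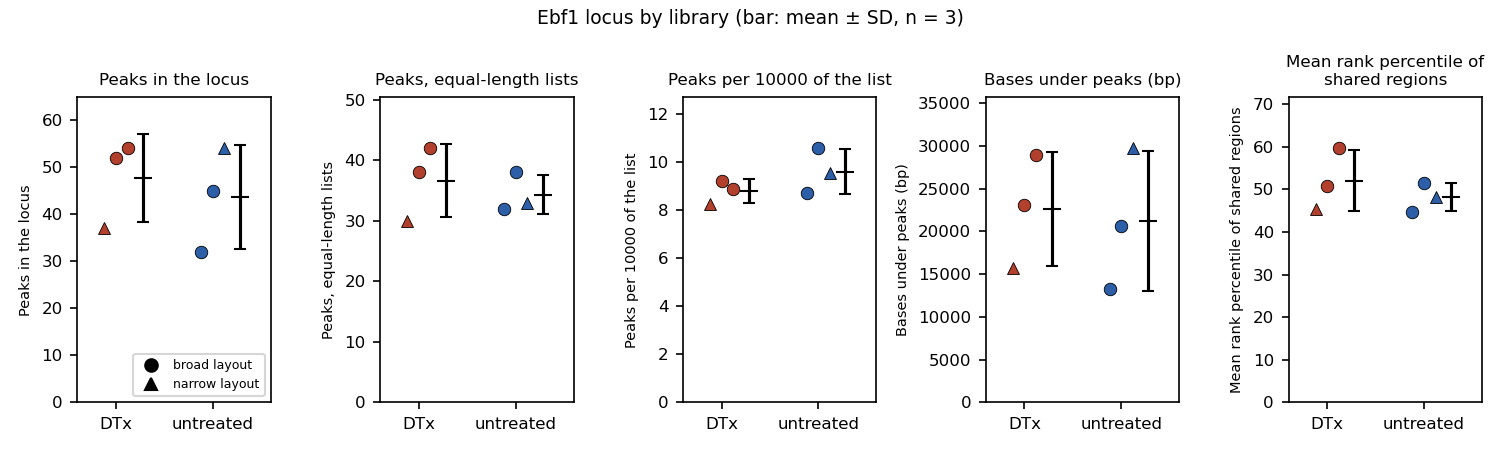
Per-library values at the Ebf1 locus, DTx left of untreated in each panel: peaks, peaks in equal-length lists, peaks per 10000 of the list, bases under peaks in bp, and mean rank percentile of the 29 regions called in all libraries. Circles are broad-layout and triangles narrow-layout lists, and bars show the mean ± SD (n = 3). The 2 groups overlap in every panel.

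For the 29 regions called in all 6 libraries, strength was compared by rank. In each library the −log10 q of the strongest peak was ranked among the 30954 regions shared by all libraries, the ranks were turned into normal scores (a score of 0 is the middle rank) and limma was fitted over all 30954 with group and list layout as terms. Higher in DTx were 0 regions at an adjusted p of 0.05 (0.0% of all) and lower in DTx also 0 (0.0%), in the locus and in the genome alike, and the lowest adjusted p was 0.991. Unadjusted p lay under 0.05 for 1 of the 29 (3.45%), against 4.4% of all. The difference was above 0 for 20 of the 29 (69.0%), against 49.5% of all, with a median of 0.10 at the locus and -0.0024 over all. That number changed with the libraries used. It was 15 of 30 without DTx replicate 3 and 19 of 33 without untreated replicate 1. Without DTx replicate 1, and likewise without untreated replicate 3, it was 26 of 29. With fold enrichment ranked in place of −log10 q it was 15 of 29.

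The mean rank percentile of these regions among the shared regions was 45.5, 50.8 and 59.6 in DTx and 44.8, 51.4 and 48.3 in untreated libraries. The group means were 52.0 ± 7.15 in DTx and 48.1 ± 3.32 in untreated libraries, a difference of 3.81 (SD, n = 3 each, exact permutation p = 0.5). DTx replicate 3 was the highest of all 6 and the other DTx libraries lay within the untreated range. Without DTx replicate 3 the difference was -0.186. It was 6.88 in the broad lists and -5.32 in the narrow ones.

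The region of lowest p was a weak site 47.3 kb into the gene (chr11:44665222-44665590, 369 bp). Its rank percentiles among the shared regions were 8.3, 20.1 and 11.4 in DTx and 2.3, 6.3 and 7.1 in untreated libraries. Every DTx value was above every untreated one, a pattern that this region alone of the 29 showed (3.45%) and that 3.97% of all shared regions had. In no region of the locus were all DTx values below all untreated ones, against 4.77% of all. The difference in normal score was 0.525 ± 0.221 (SE, limma unadjusted p = 0.0479, adjusted p = 0.991). It was 0.303 without untreated replicate 1 and 0.288 with fold enrichment ranked. In their own lists, these peaks stood at percentiles 23.3, 48.6 and 40.2 in DTx and 6.48, 17.6 and 35.5 in untreated libraries, where the groups overlapped.

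This site is the last of 3 neighbouring weak sites, the others named after their values were seen. That at 43.8 kb (chr11:44661714-44662127) had rank percentiles of 17.4, 19.4 and 37.4 in DTx and 16.9, 23.5 and 6.4 in untreated libraries. That at 45.6 kb (chr11:44663374-44664109) had 17.1, 19.8 and 41.7 in DTx and 9.4, 22.0 and 14.4 in untreated libraries. Their differences in normal score were 0.359 ± 0.196 and 0.381 ± 0.237 (SE, limma adjusted p = 0.991 for each), and the groups overlapped at both.

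The region with the lowest p among those lower in DTx was the one 68.2 kb into the gene (chr11:44685936-44686664). Its rank percentiles were 2.9, 15.6 and 18.5 in DTx and 13.1, 8.3 and 20.3 in untreated libraries, and its difference was -0.156 ± 0.283 (SE, limma adjusted p = 0.992). At the start region the rank percentiles were 82.2, 83.7 and 74.7 in DTx and 74.0, 85.2 and 86.4 in untreated libraries, with a difference of -0.0736 ± 0.177 (SE, limma adjusted p = 0.997). At the 3′ end they were 33.0, 47.2 and 54.8 in DTx and 14.6, 48.5 and 39.8 in untreated libraries, with a difference of 0.319 ± 0.292 (SE, limma adjusted p = 0.991). The groups overlapped at all 3. For the strongest site of the locus, 332.6 kb into the gene, the difference was 0.0219 ± 0.142 (SE, limma adjusted p = 0.998).

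**Figure D4:**
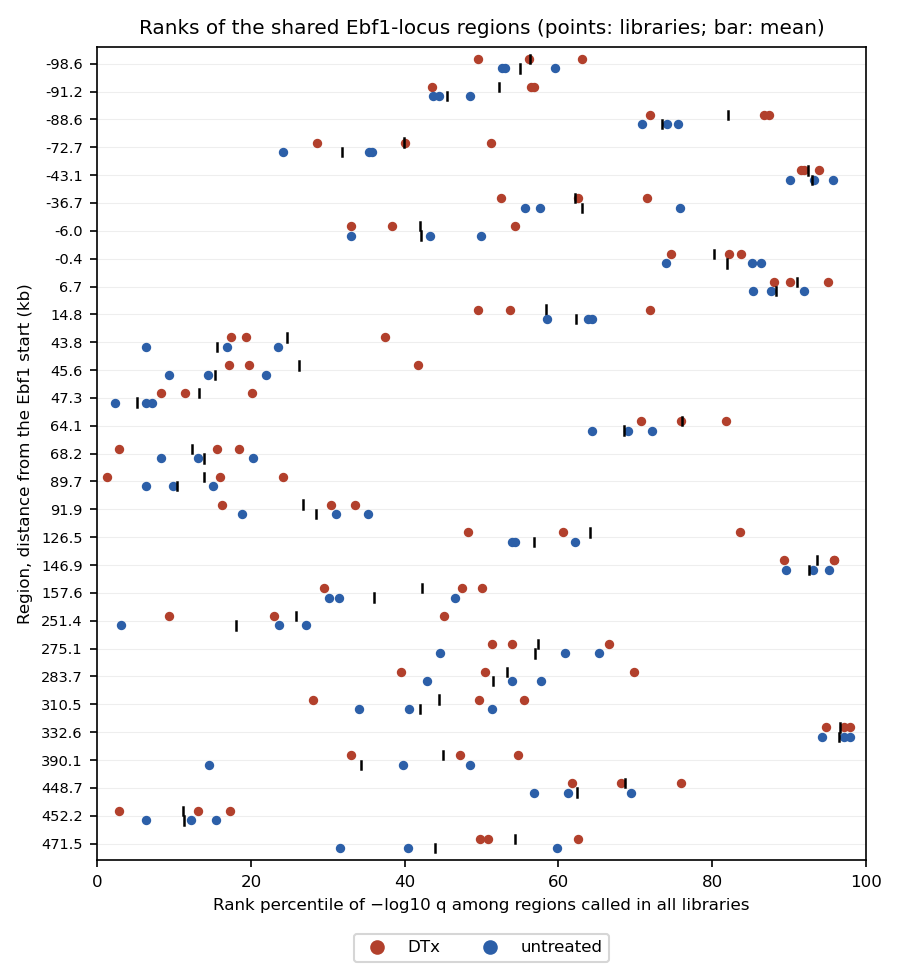
Rank percentile of −log10 q among the regions shared by all libraries (horizontal axis) for the 29 shared regions of the locus, by distance from the Ebf1 start in kb, with DTx drawn above untreated in each row. Points are libraries and short bars group means. The points of the groups are separate at 47.3 kb only and overlap in the other rows.

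Set against other long genes, Ebf1 had many open sites. Of 990 protein-coding genes of at least 200 kb, 10 (1.01%), Ebf1 among them, had at least as many regions called in all 6 libraries as the 19 inside Ebf1, and the median long gene had 1. Foxp1 (42), Lpp (25), Akap13 (23), Prkce (21) and Gse1 (20) led the list. Per 100 kb of gene, Ebf1 had 4.87 such regions and the median was 0.398, and 20 of the 990 (2.02%) had as many or more. These counts describe the lists and were not tested against chance.

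**Figure D5:**
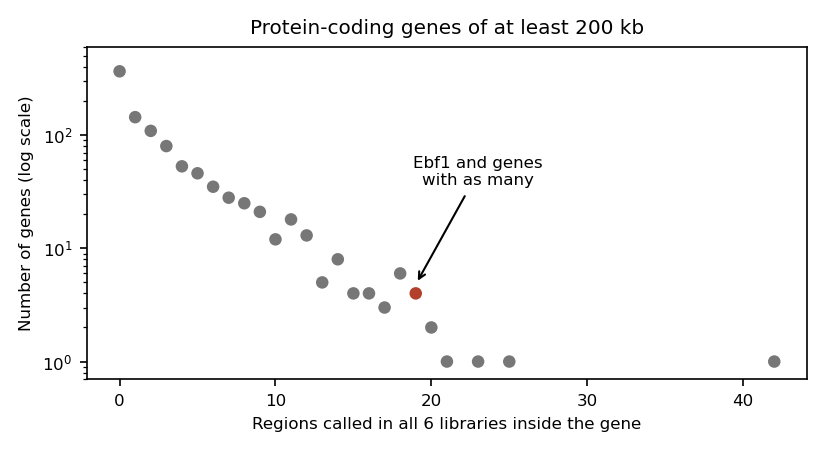
Number of protein-coding genes of at least 200 kb (log scale) by the number of regions called in all 6 libraries inside the gene. Ebf1 and the genes level with it stand at 19, in the right tail of a distribution whose median is 1.

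The long genes whose peak density over the 6 lists was most like that of Ebf1 were Cmip, Sgms1, Gse1, Trio and Bach2. Likeness was the distance between the 6 values of log2(peaks per 100 kb + 0.5), taken over the gene and 100 kb on each side, and these 5 lay 0.228, 0.275, 0.279, 0.306 and 0.316 from Ebf1. Ebf1 itself had 6.27, 8.81 and 9.15 peaks per 100 kb in DTx and 5.42, 7.63 and 9.15 in untreated libraries, an order that follows the lengths of the lists within each group. The mean count of DTx over that of untreated libraries was 1.09 for the Ebf1 locus, against a median of 1.15 over 9116 genes with at least 10 peaks on average and 1.19 for the lists as a whole. A ratio at or below that of Ebf1 was found for 26.2% of these genes.

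Other genes of the EBF1 pathway were compared by a peak within 1 kb of a gene end. Among the 4 members of the EBF family only Ebf1 had one in all 6 libraries. Ebf2, known from fat and nerve cells, had none, Ebf3 had one in 1 DTx library and no untreated one, and Ebf4 in 2 DTx libraries and 1 untreated. Of 11 genes known to act upstream of Ebf1, 8 (72.7%) had one in all 6, against 49.2% of all protein-coding genes. They included Tcf3 (E2A), with percentiles between 98.4 and 99.7, Foxo1 between 68.3 and 88.2, Pax5 between 73.2 and 87.0, and Ets1 between 6.9 and 42.8. The interleukin 7 receptor gene Il7r had one in 3 DTx and 2 untreated libraries, Ikzf1 (Ikaros) in 2 DTx and 3 untreated, and Stat5b in none.

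Each of the 6 antagonists and partners of EBF1 was called at a gene end throughout. Id2 and Id3, inhibitors of E proteins, had group means of 92.1 and 91.6 in the percentiles of DTx and 91.2 and 85.1 in those of untreated libraries. Over the 6 libraries Id2 ranged from 88.1 to 94.5 and Id3 from 75.5 to 95.6. Zfp423 and Zfp521, zinc finger proteins that bind EBF1, ranged from 13.5 to 49.0 and from 8.14 to 43.2. Of 16 target genes of EBF1, 11 (68.8%) had such a peak in all 6, beside the same 49.2% of all genes. The B cell receptor chain genes Cd79a and Cd79b were at 91.4 and 77.1 on average in DTx and 88.4 and 67.6 in untreated libraries. Over the 6 libraries they ranged from 80.7 to 94.5 and from 50.2 to 83.5. The DTx mean was also the higher at the erythroid marker Hbb-bt (84.3 against 78.8) and the lower at Cd93 (74.6 against 77.9). Group differences at these gene ends were not tested. A percentile depends on how many weak peaks its list holds, and the DTx lists were 1.19 times as long on average. Vpreb1, Vpreb2 and Igll1, which encode the surrogate light chain of the earlier pre-B cell receptor, and Fcrla had none in any library. No gene of these lists was called at a gene end in all libraries of 1 group and none of the other, a pattern that 0.0366% of all protein-coding genes showed for DTx and 0.00457% for untreated. Of the 16 targets, 11 matched the promoter table, with 1 window each. The EBF palindrome occurred in those of Cd22 and Ceacam1, and in 0.779% of all 32851 windows. These genes were listed as known targets, and the difference from that share was not tested.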

How the data were processed

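The study deposited 1 ATAC-seq peak list for each of 3 DTx and 3 untreated libraries. The submitters' processing notes name Trim Galore 0.4.3 for trimming, Bowtie2 2.3.2 with the mm10 build for alignment, and MACS2 2.1.1 for peaks. Tn5 shifting, duplicate removal and read totals were not given in the sources used here. Each deposited list gives position, length, pileup (a coverage signal, per the file headers), fold enrichment (a ratio, again as headed) and −log10 columns for the p-value and q-value, recognised in the deposited lists by order and range because their headers are damaged. These are the authors' values per peak and were ranked within lists only. Lists are of 2 layouts, and each group has 2 broad lists and 1 narrow one. Broad lists reach down to a lower −log10 q than narrow ones.

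Peaks of the 19 autosomes and both sex chromosomes were merged into union regions, and a library had a region where at least 1 bp overlapped. Coordinates are 1-based. Gene positions came from a RefSeq table without exons. Per-library values were tested by exact permutation over 20 relabellings. Ranks were fitted with limma 3.58.1 (R 4.3.3, robust, layout as covariate) with Benjamini-Hochberg adjustment over all shared regions at 0.05. The fit was tried on simulated data with planted shifts larger than any difference in the locus. Its power at differences of the size seen there was not tested. Other steps used Python 3.11.15, NumPy 2.4.6, pandas 2.3.3 and SciPy 1.17.1. Described in full are the gene ends, the 8 regions with the highest lowest percentile, the widest 3 and the lowest p in each direction. The regions, lists and tests were chosen with earlier results of these data known. Alternatives varied the libraries, list layout, list length, q minimum, flank, merging, overlap, ranked column and rank scale. Some members of the gene lists are counted but not reported here by name.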

Additional observations from a re-analysis of the deposited data

How the results depend on the processing

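Of the 4 per-library differences, that in peaks per 10000 of the list (-0.814) kept its sign in each of 12 alternatives and the other 3 did not. The replicate block, among the alternatives of each, leaves a difference of group means unchanged by design. The difference in peaks (4.0) was -1.83 without untreated replicate 1 and -17.0 in the narrow lists, and that in bases (1389) was -1797 without DTx replicate 3, -2567 without untreated replicate 1 and -14021 in the narrow lists. That in mean rank (3.81) was -0.186 without DTx replicate 3 and -5.32 in the narrow lists. Leaving out 1 library gave -1.83 to 9.33 for peaks, -1.27 to -0.329 per 10000 peaks, -2567 to 5652 for bases and -0.186 to 6.99 for mean rank. DTx-only regions numbered 5 among the broad lists and 0 to 3 with 1 library left out (3 without DTx replicate 1, 1 without untreated replicate 3). Untreated-only regions numbered 17 in the 2 narrow lists and 0 with any 1 library left out. Shares over all regions were not counted in these settings. The broad DTx lists were longer than the broad untreated ones (56266 and 60811 against 36760 and 42504 peaks). In the narrow layout the untreated list was the longer (56503 against 44661). Regions past limma's adjusted threshold stayed at 0 in each alternative fitted. The start region turned to 0.00202 without DTx replicate 3 and 0.025 without untreated replicate 2, that at 68.2 kb to 0.288 in the broad lists, 0.29 without DTx replicate 1 and 0.299 without untreated replicate 3, and the 3′ end to -0.04 without untreated replicate 1. With 1 library left out these 3 ranged from -0.193 to 0.025, -0.351 to 0.299 and -0.04 to 0.569, and that at 47.3 kb from 0.303 to 0.742. The cause was not tested. Of 112 alternatives to the results on the whole locus, 101 kept direction and call, 7 reversed and 4 moved a count. Those kept include the replicate block, which could not change a per-library difference, so the tally does not measure robustness. Same-numbered libraries did not pair (r = 0.202, 0.0461 and -0.0347 across regions), and with the replicate block the difference in peaks was 4.0 (exact permutation p = 0.5, smallest possible 0.25). A limma fit of the narrow lists alone was not run, since it has 1 library per group. Unknown depth limits each count, since weak sites missing from short lists may only lie below their threshold.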

Other observations

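Among the 4 broad lists alone, 27 of 30 shared regions of the locus had a higher rank in DTx, with a median difference in normal score of 0.24, against 49.8% of all shared regions. The number was 26 of 29 without DTx replicate 1, 26 of 29 without untreated replicate 3, 19 of 33 without untreated replicate 1 and 15 of 30 without DTx replicate 3. At an unadjusted limma p of 0.05, 2 regions of the locus passed in the broad lists (5.12% of all regions did) and 0 after adjustment, where the lowest adjusted p was 0.91. These counts were chosen for mention after their values were seen, and what sets them apart from the fit of all 6 libraries was not tested. Regions of the same libraries are not replicates. With 1 value per library, the mean rank in the broad lists differed by 6.88 (exact permutation p = 0.667).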
